A study of Homo sapiens with 15 samples.

Results

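MARCKS (ENSG00000277443) and MARCKSL1 (ENSG00000175130) were followed across 15 RNA-seq libraries of HT1080 human fibrosarcoma cells. They are 2 of the 60675 genes in the count table, chosen by name because MARCKS was near 0 in one of the mutant lines. MARCKS, the myristoylated alanine-rich C-kinase substrate, is a protein of the inner face of the plasma membrane. It is held there by an N-terminal myristate and by a basic effector domain that binds the lipid PIP2. Protein kinase C phosphorylates that domain, and calcium-bound calmodulin binds it, and either event can release the protein into the cytosol and free PIP2 and actin for other partners. MARCKSL1, also called MARCKS-like protein or MRP, is the smaller relative with the same type of effector domain, and both are known as regulators of cortical actin, cell spreading and migration.

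Each of the 5 groups held 3 libraries, described in the study as biological replicates. Lysine deacetylases (KDACs, also named HDACs) remove acetyl groups from proteins. KDAC6 is a mainly cytoplasmic enzyme with a pair of catalytic domains, and the 6CD1m line carried H216A in the first of them while the 6CD2m line carried H611A in the second. The 8CDm line carried H143A in KDAC8. The changes were made in the endogenous genes by CRISPR/Cas9 editing, so the mutant protein is expressed from its own gene. Cells of the 6CD1m and 6CD2m lines had received 1 uM Tubastatin A (TubA), sold as a KDAC6 inhibitor, for 2 days, and cells of the 8CDm line 5 uM PCI-34051 (PCI), sold as a KDAC8 inhibitor, for 2 days. The remaining groups were unedited (WT) cells that had received the same 1 uM TubA or 5 uM PCI for 14 days. All 15 libraries therefore came from inhibitor-treated cells, and untreated cells were not analysed here. A mutant line and a WT group on the same inhibitor differed in both genotype and days of treatment, so the contributions of line and duration cannot be told apart, nor can those of an edit and of other differences between separately grown populations.

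Libraries held 10932455 to 19983710 counts (median 17551887), and the shallowest group was 6CD1m, with 10932455 to 14068244. Of 10 mesenchymal markers, 9 reached 1 CPM (a count scaled by the size of its library) in every library, S100A4 being the exception at group means of 0.305 to 0.639 CPM, and their summed level was 6380 to 7157 CPM in 6CD2m and 7093 to 11250 CPM in the other groups. Against WT cells on the same inhibitor, 4 of the 10 were called lower and 1 higher in 6CD2m (median log2 difference -0.53). Of all tested genes 7.22% were called lower and 4.61% higher there. In 8CDm 4 of the 10 were called lower (median -0.35), and 6.27% of all genes. The 12 markers of other cell types summed to between 4.09 and 14.9 CPM. Most of this sum was CLDN4, an epithelial claudin, at group means of 5.71 to 8.93 CPM. KRT19, an epithelial keratin, had a group mean of 1.17 CPM in WT PCI and was at 0 in 6CD2m, and EPCAM, the epithelial adhesion molecule, had group means of at most 0.0185 CPM. Of these 12 markers, 3 had enough counts to test, and CDH5, the endothelial cadherin, was the one called. It stood at 1.54 CPM in 6CD2m and 2.53 CPM in 8CDm, against 0.229 CPM in 6CD1m, 0.178 CPM in WT TubA and 0 in WT PCI. CDH5 passed the count filter through 6CD2m and 8CDm, where it was high, so its call is a description only. The part of marker expression in the results below was not tested.

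In GRCh38 with the GENCODE 29 annotation, MARCKS lies on the plus strand of chromosome 6, from 113857362 to 113863471, and MARCKSL1 on the minus strand of chromosome 1, from 32333832 to 32336379. Each has 2 exons. MARCKS has 332 codons, with 384 bases of 5′ UTR and 2895 bases of 3′ UTR, and its exons span 4275 bases at 43.8% GC. MARCKSL1 has 195 codons, with 346 and 768 bases of UTR, and its exons span 1699 bases at 59.3% GC. In each case a gene for a class I deacetylase lies close by. HDAC2, on the opposite strand, ends 69556 bases beyond the end of MARCKS, and HDAC1 ends 196 bases from the end of MARCKSL1, so that both pairs face each other. Whether the counting used strand is not given in the sources used here.

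The promoter sequences of both genes are shown because the genes moved in opposite directions in one line. They are taken from the RefSeq promoter table (GRCh38.p14), 5′ to 3′ on the strand of the gene, and capitals mark matches on either strand to the CCAAT box (CCAAT) or the GC box (GGGCGG). For MARCKS the window is chr6:113857095-113857344 (plus strand), the 250 bases before the RefSeq start. For MARCKSL1 it is chr1:32336380-32336483 (minus strand), the 104 bases of the RefSeq window that lie upstream of the GENCODE start.
MARCKS: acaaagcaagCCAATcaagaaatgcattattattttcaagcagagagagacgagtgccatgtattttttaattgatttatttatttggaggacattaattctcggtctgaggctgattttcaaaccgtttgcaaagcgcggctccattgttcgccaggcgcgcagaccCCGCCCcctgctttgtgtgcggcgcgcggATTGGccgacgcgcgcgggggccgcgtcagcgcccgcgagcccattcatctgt
MARCKSL1: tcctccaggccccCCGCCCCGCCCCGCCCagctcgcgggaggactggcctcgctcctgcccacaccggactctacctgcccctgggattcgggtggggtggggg
The MARCKS window held 2 CCAAT matches, ending 235 and 48 bases before the start, and 1 GC box. Among 35116 promoters, 32% held the former and 42.6% the latter in a window of that length. The MARCKSL1 window held 3 overlapping GC boxes and no CCAAT. In the same stretch of their own windows, 17.9% and 12.9% of promoters held these motifs. That stretch is the first 104 of the 250 bases before each RefSeq start, so it does not reach that start. Neither window held TATAAA, which 10.7% of promoters held over 250 bases and 4.64% over that stretch. MARCKS had 23 CpG dinucleotides and 52.8% GC, with a CpG observed-to-expected ratio of 1.32 against a median of 0.558 over all promoters. MARCKSL1 had 8 CpG and 76.9% GC, with a ratio of 0.532 against a median of 0.489 over that stretch of all promoters. These matches describe the letters of the reference and were not measured in these cells.

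MARCKS was expressed at a substantial level in 1 of the 5 groups, the 6CD2m line. The 6CD2m libraries held 518, 616 and 536 MARCKS counts. The 6CD1m libraries, the group the gene was chosen on, held 3, 0 and 1, and the 8CDm libraries held 0, 0 and 1. The WT libraries were also low, with 10, 5 and 3 counts on TubA and 22, 19 and 22 on PCI. MARCKS was thus near 0 in 6CD1m, but it was as low in 8CDm and low in both WT groups, and the group that stood apart from the other 4 was 6CD2m. Its lowest library held 518 counts and the highest library of the other groups 22.

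Scaled to library size, MARCKS stood at 30.6 ± 0.703 CPM in 6CD2m (SD, n = 3, as for all levels given so). The order below it was WT PCI at 1.26 ± 0.133 CPM, WT TubA at 0.350 ± 0.191 CPM, 6CD1m at 0.107 ± 0.130 CPM and 8CDm at 0.0179 ± 0.0310 CPM. The libraries of the 2 WT groups did not overlap, at 1.17 to 1.42 CPM on PCI and 0.173 to 0.553 CPM on TubA. How many of all genes separate the WT groups in this way was not counted. The libraries of WT TubA and 6CD1m overlapped, 6CD1m reaching 0.253 CPM, as did those of 6CD1m and 8CDm. Because bulk RNA was measured, fewer cells with MARCKS and less MARCKS RNA per cell cannot be told apart.

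**Figure D1:**
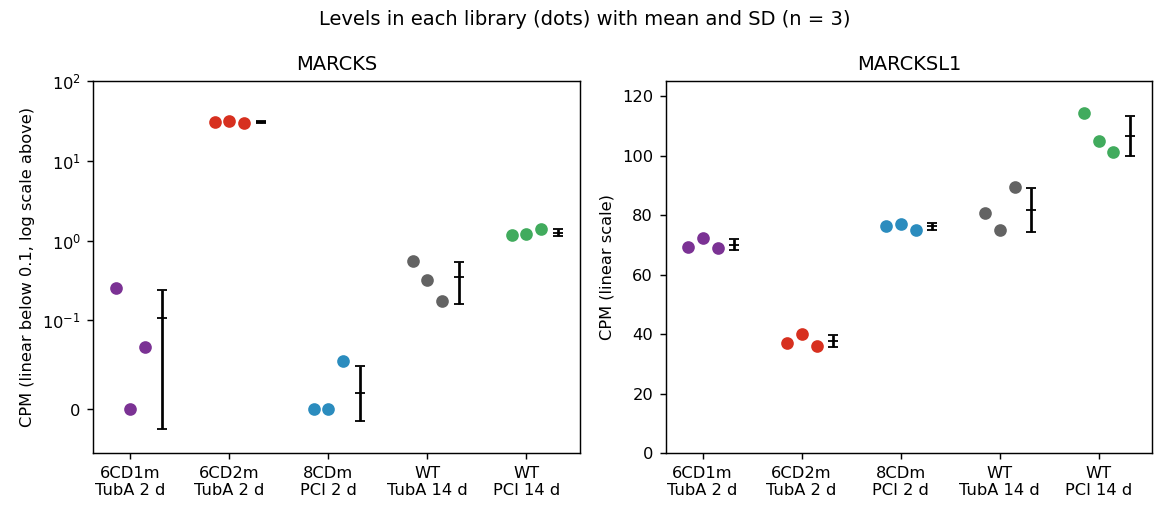
MARCKS (left, CPM on an axis that is linear below 0.1 and logarithmic above) and MARCKSL1 (right, CPM on a linear axis) in each library, by group. Dots are libraries and bars the mean ± SD of 3. MARCKS is high only in 6CD2m, at 29.8 to 31.2 CPM, and MARCKSL1 is lowest there, at 36.0 to 39.9 CPM.

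MARCKSL1 was abundant in every group and lowest where MARCKS was highest. The 6CD2m libraries held 626, 788 and 647 counts, or 37.7 ± 2.03 CPM. The 6CD1m libraries held 822, 1028 and 990, or 70.1 ± 1.76 CPM, and the 8CDm libraries 1343, 1424 and 1395, or 76.2 ± 1.15 CPM. All 3 libraries of 6CD2m lay below every library of the other groups. How many of all genes separate 6CD2m or any other group in such a way was not counted, here or for the genes named below. The WT TubA libraries held 1458, 1159 and 1551 counts, or 81.8 ± 7.30 CPM. The WT PCI libraries held 2140, 1658 and 1569, the highest level at 107 ± 6.73 CPM. Neighbours in this order overlapped for 8CDm, at 74.9 to 77.1 CPM, and WT TubA, at 75.1 to 89.6 CPM, and for no other neighbouring pair.

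Per kilobase of exon (RPKM), MARCKSL1 was the more abundant transcript of the pair in every group. In 6CD2m MARCKS reached 7.15 ± 0.164 RPKM and MARCKSL1 22.2 ± 1.20 RPKM, so that MARCKS stood at 32.3 ± 1.06% of MARCKSL1. That share was 0.474% in WT PCI, 0.174% in WT TubA, 0.0617% in 6CD1m and 0.00950% in 8CDm. MARCKS RNA was therefore a sizeable fraction of the family total in one line only. Across the 15 libraries the log2 levels of the genes had a Pearson correlation of -0.68, and across the 12 libraries without 6CD1m one of -0.74. This describes group differences, since libraries of a group share their line and treatment.

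Tests of both genes were limited to the other 4 groups, since 6CD1m was used to choose them, and the 6CD2m line was the other side of the contrast behind that choice. The MARCKS values that include 6CD2m are therefore given as descriptions, with no test. Differences were called at an adjusted p (edgeR quasi-likelihood test, Benjamini-Hochberg over 19535 genes) under 0.001. Between 6CD2m and WT TubA, the pair that shares an inhibitor, 11.8% of tested genes were called in either direction. MARCKS was higher in 6CD2m by 6.40 on the log2 scale (SE 0.34). From summed counts, 1670 against 18, this was 86.3-fold (95% counting interval 54.5 to 146). MARCKSL1 was lower in 6CD2m by 2.17-fold in summed counts, with a log2 difference of -1.12 (SE 0.09, edgeR adjusted p = 1.7e-07). In all 3 libraries of 6CD2m, MARCKS was above and MARCKSL1 below every WT TubA library. Intervals on summed counts cover counting error only.

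Between 8CDm and WT PCI, 11.0% of genes were called. MARCKS was lower in 8CDm, with a log2 difference of -5.62 (SE 0.66, edgeR adjusted p = 1.4e-05) that rests on 1 count in 8CDm and depends on the prior count of the fit. The ratio of summed counts, 63 in WT PCI to 1 in 8CDm, was 68.7 (95% counting interval 11.9 to 2757). Protein-coding genes of chromosome 6 as a whole had a median log2 difference of -0.34 in this comparison (721 genes), against 0.00 between 6CD2m and WT TubA, and the part of this in the MARCKS value was not tested. MARCKSL1 was lower in 8CDm, with a log2 difference of -0.49 (SE 0.08, edgeR adjusted p = 0.00048). This call was lost when GC content was modelled, with a difference of -0.18 (edgeR adjusted p = 0.25), and whenever any of the 6 libraries was left out, with differences of -0.52 to -0.43.

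The difference between a mutant line and WT cells on the same inhibitor had opposite signs in the TubA and PCI arms for MARCKS. The difference of these differences was 12.03 on the log2 scale (SE 0.66), a description since it includes the MARCKS level of 6CD2m. The test of this term called 5.16% of genes. For MARCKSL1 it was -0.63 (SE 0.12, edgeR adjusted p = 0.0017), not past the threshold, with the gene lower than WT in both mutant lines.

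Between the mutant lines, 6CD2m and 8CDm, 9.96% of genes were called. MARCKS summed to 1670 counts in 6CD2m and 1 in 8CDm, a ratio of 1671 (95% counting interval 299 to 66039). MARCKSL1 was lower in 6CD2m by a log2 difference of -1.02 (edgeR adjusted p = 4e-07). Between 6CD2m and WT PCI, where 14.6% of genes were called, MARCKS was 24.3-fold higher in summed counts (95% counting interval 18.9 to 31.8). MARCKSL1 differed there by -1.50 (edgeR adjusted p = 8.3e-09). MARCKSL1 was thus lower in 6CD2m than in each of the 3 other tested groups, in comparisons that share the 6CD2m libraries.

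Between the WT groups 0.420% of genes were called, 82 in all, and neither gene was among them. With the replicate number as a block, which paired the libraries in this comparison, the number called was 27. MARCKS was lower on TubA with a log2 difference of -1.81 (SE 0.40, edgeR adjusted p = 0.013), from 18 counts against 63. MARCKSL1 was lower on TubA with a difference of -0.38 (SE 0.08, edgeR adjusted p = 0.013). Between 8CDm and WT TubA, where 10.2% of genes were called, MARCKS had a difference of -3.81 (SE 0.85, edgeR adjusted p = 0.0032) on 1 against 18 counts. It was not past the threshold. MARCKS entered this test because other groups carried it through the count filter. With only the libraries of this pair it was filtered out. MARCKSL1 differed by -0.10 (95% interval -0.28 to 0.08, edgeR adjusted p = 0.40) in that pair.

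The 6CD1m line, which chose the genes, is given as a description with no test. MARCKS summed to 4 counts in 6CD1m against 1670 in 6CD2m, so the ratio of 6CD2m to 6CD1m was 309 (95% counting interval 121 to 1137). Of these 4 counts, 3 came from replicate 1, and without it the log2 difference of 6CD1m from 6CD2m moved from -8.16 to -9.50 and that from WT TubA from -1.76 to -3.09. The WT groups had 3.58 times (1.18 to 14.6, TubA) and 12.7 times (4.73 to 48.1, PCI) the MARCKS of 6CD1m in summed counts. The log2 difference of MARCKSL1 in 6CD1m was 0.90 from 6CD2m, -0.22 from WT TubA, -0.12 from 8CDm and -0.61 from WT PCI.

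**Figure D2:**
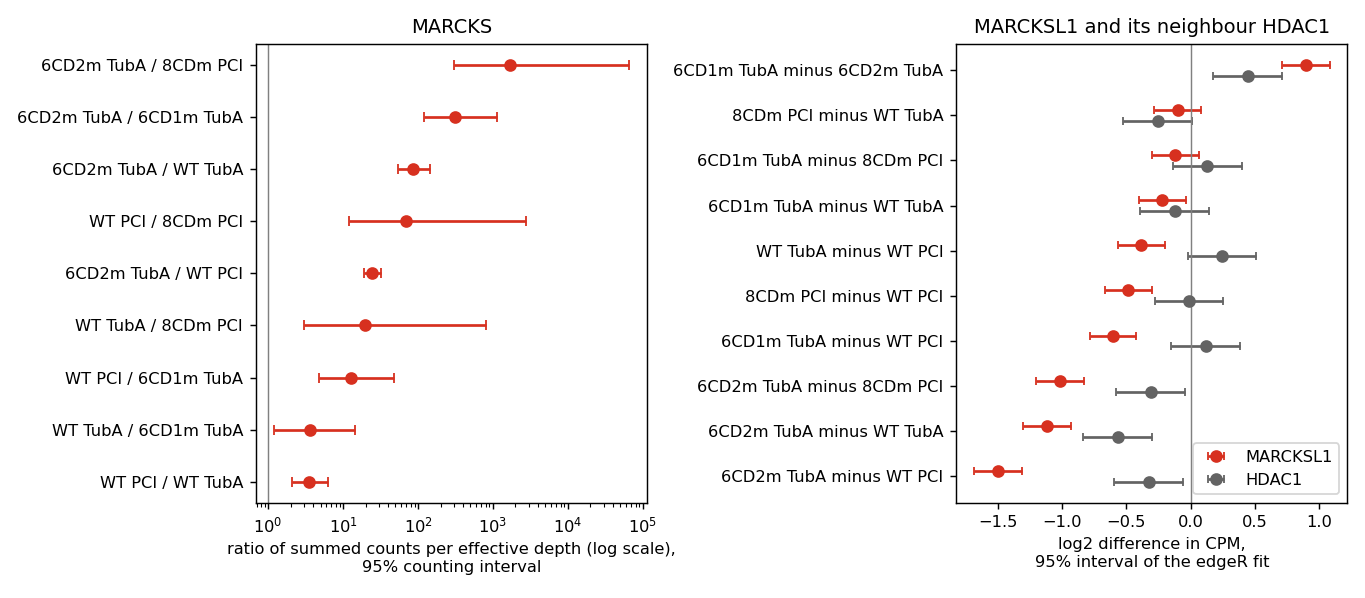
Left, ratios of summed MARCKS counts per effective library depth between groups on a log axis, with 95% counting intervals. Right, log2 differences of MARCKSL1 and of its neighbour HDAC1 with 95% intervals of the edgeR fit. The 4 MARCKS ratios with 6CD2m run from 24.3 to 1671, and the MARCKSL1 differences furthest below 0 are the 3 of 6CD2m, from -1.02 to -1.50. Values with 6CD1m are descriptions.

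A planned search looked for genes lost in 6CD1m alone, that is, with a mean of at least 1 CPM in every other group and a mean at least 32 times below the lowest of these in 6CD1m. It found 1 gene, ACOT2, a mitochondrial acyl-CoA thioesterase, at 0 in 6CD1m and 2.20 to 9.44 CPM elsewhere. MARCKS did not meet it, since 8CDm and WT TubA were under 1 CPM. A second description was chosen after the values were seen. It counted genes whose mean level in one group was at least 1 CPM and at least 10 times that of every other group. In 6CD2m it found 89 genes (0.456% of those tested), against 2 in 6CD1m, 3 in 8CDm and 0 in both WT groups. The WT groups are the same unedited cells, so a gene high in both could not be counted for either. Genes such as WNT7A, at 1.54 CPM in 6CD2m and 0 elsewhere, passed the filter through 6CD2m alone. Genes at least 10 times below every other group, with those at 1 CPM or more, numbered 61 in 8CDm (0.312%). They numbered 24 in 6CD2m (0.123%), 4 in 6CD1m and 0 in both WT groups. MARCKS was among the 89, at 24.2 times the next group, and the seventh highest of them by level. Above it stood SORL1 (80.8 CPM), MAGEC2, IGFN1, MYEOV, RP11-669N7.2 and MAGEC1 (30.8 CPM). MAGEC1 and MAGEC2 are cancer-testis antigens of the X chromosome, and SORL1 is a sorting receptor.

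The genes with the pattern most like MARCKS were ranked by the correlation of log2 CPM over 15 libraries, among 14235 genes. KLF4, a zinc-finger transcription factor, came first with a Pearson r of 0.97, at 27.8 CPM in 6CD2m and 3.63 to 5.85 CPM elsewhere. PLCD3, a phospholipase C that cleaves PIP2, followed with 0.96, at 83.5 CPM in 6CD2m against 39.8 to 51.9 CPM. ACSL5, UPP1 and NUB1 came next. Without the 6CD1m libraries the first were ZNF595 (0.99) and JUP (0.98), the gene of the junction protein plakoglobin, at 19.4 CPM in 6CD2m against 1.19 to 4.08 CPM. NUB1 was in both lists. The genes most like MARCKSL1 were FHOD3 (0.98), COL6A3, CAD, TSHZ1 and DBN1. FHOD3 is an actin-assembling formin and DBN1 the actin-binding protein drebrin. FHOD3 stood at 59.1 CPM in 6CD2m and 157 to 217 CPM elsewhere. These correlations rest on 5 groups whose libraries share line and treatment, and describe likeness only.

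**Figure D3:**
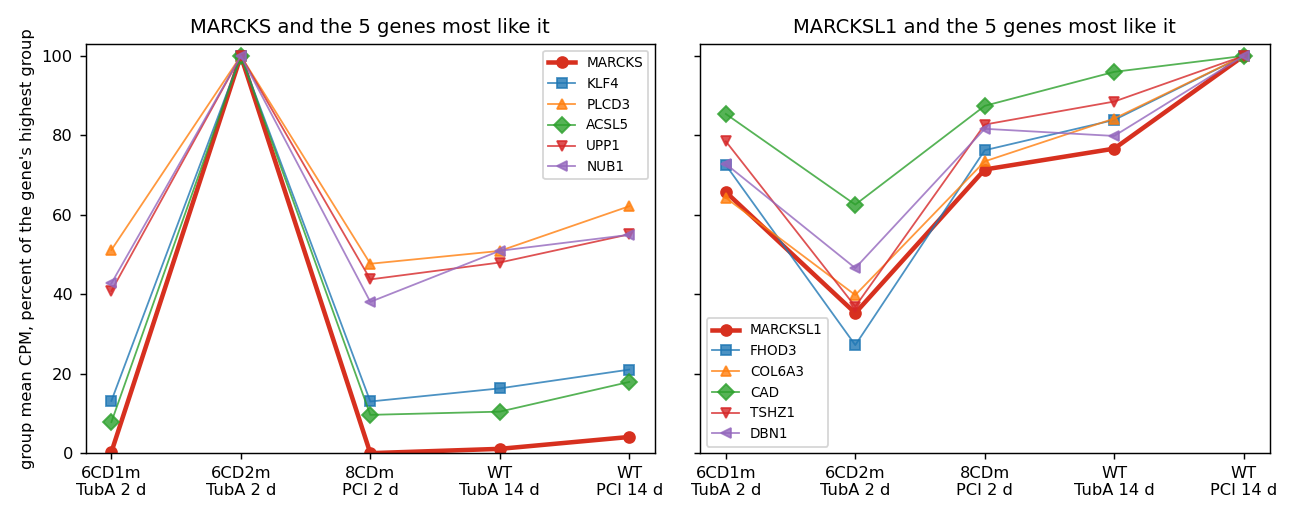
Group mean CPM of MARCKS (left) and MARCKSL1 (right) and the 5 genes most like each over 15 libraries, as a percent of each gene's highest group mean. All genes on the left peak in 6CD2m, where KLF4 reached 27.8 CPM, and all on the right have their lowest mean there, where FHOD3 stood at 59.1 CPM.

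The genomic neighbourhood of MARCKS held few expressed genes. Within 1 Mb of it the table held 21 other genes, of which 3 had enough counts to test. HDAC2, a class I nuclear deacetylase, stood at 106 ± 7.90 CPM in 6CD2m, 66.1 ± 15.7 in 6CD1m, 57.8 ± 2.22 in 8CDm, 91.8 ± 21.7 in WT TubA and 61.5 ± 17.7 in WT PCI. Its log2 difference was 0.20 between 6CD2m and WT TubA (edgeR adjusted p = 0.49) and -0.67 between 6CD1m and 6CD2m (edgeR adjusted p = 0.016). HDAC2 was higher in 6CD2m than in 8CDm by 0.87 (edgeR adjusted p = 0.0047) and than in WT PCI by 0.78 (edgeR adjusted p = 0.0068). Between 8CDm and WT PCI it differed by -0.09 (edgeR adjusted p = 0.76). None of these passed the threshold. The antisense gene RP3-399L15.3 had 4.70 CPM in 6CD2m and 1.75 to 3.08 CPM in the other groups. It was higher in 6CD2m than in WT TubA by 1.25 (edgeR adjusted p = 0.0056). In 8CDm it was higher than in WT PCI by 0.81 (edgeR adjusted p = 0.056), and neither difference passed the threshold. HS3ST5, a heparan sulfate sulfotransferase, was the one neighbour called, between 8CDm and WT PCI, where it was higher by 2.75 (edgeR adjusted p = 0.00024) while MARCKS was lower. The long non-coding RNA LINC01268 had 6 counts in 6CD2m, at most 4 in a library, and 0 in the 12 other libraries.

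The region of MARCKSL1 was denser, with 79 other genes within 1 Mb and 45 tested. Between 6CD2m and WT TubA 2 of these were higher (TINAGL1 and SERINC2) and 2 lower (SPOCD1 and SYNC), with a median log2 difference of 0.01 over the 45. Of all genes 11.8% were called there. Between 8CDm and WT PCI, where 11.0% of all genes were called, SERINC2 and TSSK3 were higher and TINAGL1 and SYNC lower. TSSK3 starts 15.1 kb from MARCKSL1. HDAC1, the convergent neighbour, stood at 78.3 CPM in 6CD2m, 106 in 6CD1m, 97.2 in 8CDm, 116 in WT TubA and 98.1 in WT PCI. Like MARCKSL1 it had its lowest level in 6CD2m, but its difference from WT TubA was -0.57 (edgeR adjusted p = 0.0027) against -1.12 for MARCKSL1, and it was not called. Between 6CD1m and 6CD2m HDAC1 differed by 0.44 (edgeR adjusted p = 0.012). Between 8CDm and WT PCI, where MARCKSL1 fell by 0.49, HDAC1 had a difference of -0.01. The pseudogenes MARCKSL1P1 and MARCKSL1P2 held 6 to 27 and 0 to 2 counts per library, so few of the reads of the family were assigned to them.

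**Figure D4:**
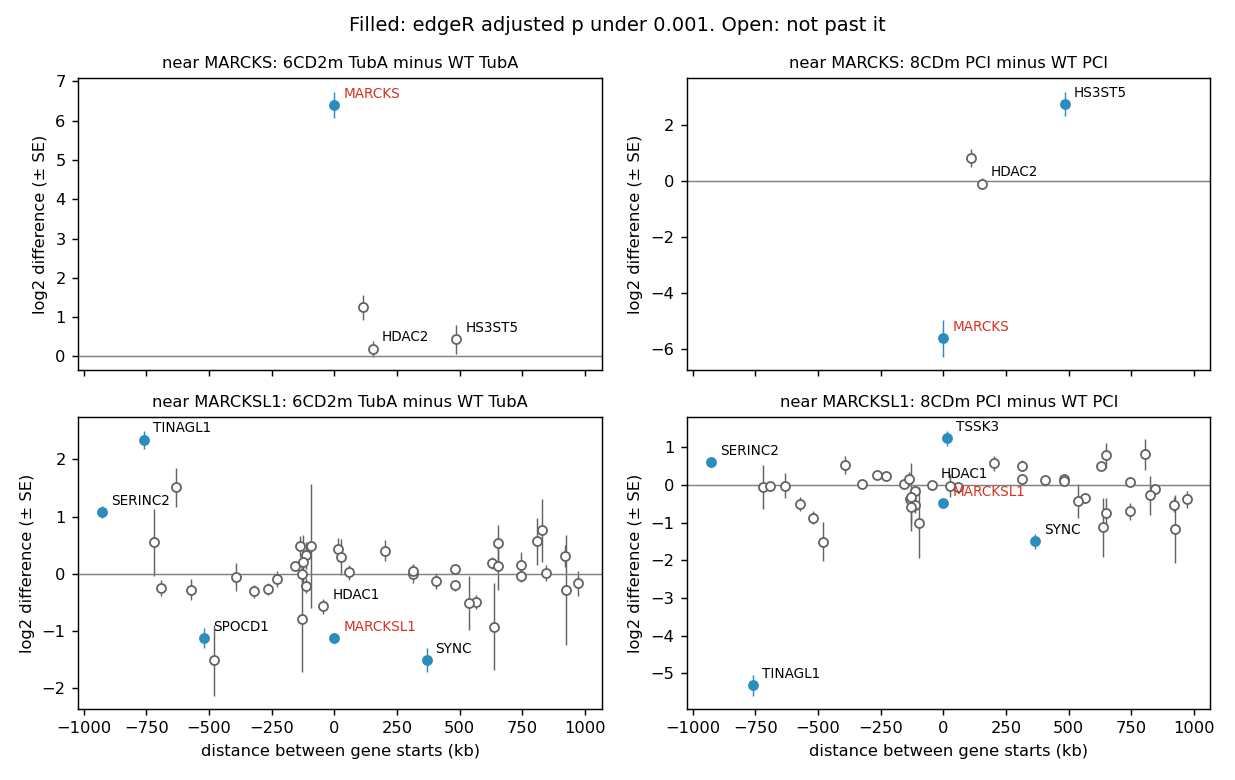
Log2 differences (± SE) of tested genes within 1 Mb of MARCKS (top) and MARCKSL1 (bottom), against the distance between gene starts in kb. Left, 6CD2m minus WT TubA. Right, 8CDm minus WT PCI. Filled points passed an edgeR adjusted p of 0.001. Near MARCKS no tested neighbour was called on the left, where MARCKS is at 6.40 as a description, and HS3ST5 was called on the right, at 2.75.

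The genes around MARCKS in its pathway were followed in 8 lists holding 105 tested genes besides the pair. Between 6CD2m and WT TubA 8 were higher and 9 lower, or 16.2%, where 4.61% of all genes were called higher and 7.22% lower. Between 8CDm and WT PCI 10 were higher and 7 lower, where 4.69% of all genes were called higher and 6.27% lower. Between 6CD1m and WT TubA none was called by edgeR, against 0.793% of all genes, while 43 had an unadjusted p under 0.05 and DESeq2 called 4, all lower. Over all 19535 genes, 6248 had such a p there and DESeq2 called 616. Between 6CD1m and 6CD2m, where 13.2% of all genes were called, 6.54% higher and 6.65% lower, 9 were higher and 8 lower. That split was 14 and 24 with DESeq2, 8 and 17 with GC offsets, 10 and 14 with upper-quartile scaling and 1 and 6 with only the libraries compared. Between the WT groups PLCE1 alone was called, higher on TubA by 0.94. The number called changed when single libraries were left out. Between 6CD2m and WT TubA the 9 lower became 2 without replicate 1 of either group and 3 without replicate 3 of either. They became 5 without 6CD2m replicate 2 and 7 without WT TubA replicate 2. The 8 higher stayed at 8 in each case. Over all genes 2310 were called in this comparison, and 1441 to 1635 with a single library of the pair left out.

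Among relatives with a membrane or calmodulin-binding role, BASP1, a myristoylated PIP2-binding protein of the same functional class, stood at 29.2 ± 2.84 CPM in 6CD2m and at 41.6 to 54.9 CPM in WT TubA. Its libraries did not overlap, and it was lower in 6CD2m with a log2 difference of -0.77 (edgeR adjusted p = 0.00019). GAP43, the third gene of that class, was scarce at 0.166 to 0.925 CPM. NRGN, a calmodulin-binding protein, was higher in 6CD1m than in 6CD2m by 1.50, at 13.6 against 4.80 CPM, and lower in 8CDm than in WT PCI with a difference of -1.18. Of 3 tested relatives, 1 was lower and none higher in 6CD2m than in WT TubA.

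Of the 13 tested kinases that can act on the effector domain, 1 was higher and 1 lower in 6CD2m than in WT TubA, with a median difference of -0.08 beside -0.01 for all genes. PRKCA, a classical protein kinase C, was abundant throughout at 230 to 294 CPM and was not called. PRKCZ, an atypical protein kinase C, rose in 6CD2m by 2.58 (edgeR adjusted p = 3.5e-06) and in 8CDm by 2.99 (edgeR adjusted p = 7.2e-07) against WT on the same inhibitor. Its levels were 7.81 CPM in 6CD2m, 14.2 CPM in 8CDm, 2.03 CPM in 6CD1m, 1.31 CPM in WT TubA and 1.80 CPM in WT PCI, so it was high in one line with MARCKS and in one without. PRKCE was higher in 8CDm by 0.58. Of the 7 phosphatase genes, edgeR called 0 between 8CDm and WT PCI, while all 7 had an unadjusted p under 0.05 and DESeq2 called 4. Over all 19535 genes, 8955 had such a p in this comparison and DESeq2 called 3840. Between 6CD2m and WT TubA edgeR also called 0 of the 7, with 3 at an unadjusted p under 0.05 and 0 by DESeq2.

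Of 4 tested calmodulin genes 1 was called in 8CDm, CALM3, which differed from WT PCI by -0.49, while in 6CD2m against WT TubA edgeR called 0 of 4, with 2 at an unadjusted p under 0.05 and 1 by DESeq2. Over all 19535 genes, 8266 had such a p in that comparison and DESeq2 called 3642. The N-myristoyltransferase NMT2, of the enzyme pair that attaches the myristate of MARCKS, stood at 139 ± 6.97 CPM in 6CD2m against 58.5 ± 6.33 CPM in WT TubA and 56.9 ± 9.26 CPM in 6CD1m. It was higher in 6CD2m than in WT TubA by 1.25 (edgeR adjusted p = 2.1e-06), and its libraries did not overlap with those of any other group. NMT1 was not called, at 122 to 148 CPM.

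Of 9 tested genes of PIP2 synthesis, PIP5K1A alone was called in 6CD2m against WT TubA, with a difference of -0.58 (edgeR adjusted p = 0.00027). Of 27 genes of PIP2 breakdown and use, 5 were higher and 1 lower there. INPP5D, the phosphatase SHIP1, rose by 2.30, at 25.3 CPM in 6CD2m against 5.11 CPM. The phospholipases PLCB2, PLCG2, PLCB4 and PLCD3 were higher by 2.68, 1.80, 1.00 and 0.97, and PLCB1 differed by -1.46. PLCB2 was near the lower end, at 2.42 against 0.374 CPM. In 8CDm against WT PCI the same list had 5 higher and 2 lower. PLCH1 rose by 3.89, to 19.6 CPM against 0.948 to 1.60 CPM in WT PCI, and SYNJ2, a PIP2 phosphatase, differed by -1.84. PLCB2, PLCB4 and INPP5D were higher and PLCB1 lower than WT in both 6CD2m and 8CDm, while MARCKS was high in the former and near 0 in the latter. The other 2 genes called higher in 6CD2m had differences of the opposite sign in 8CDm, PLCG2 of -0.44 (edgeR adjusted p = 0.19) and PLCD3 of -0.38 (edgeR adjusted p = 0.0073), neither past the threshold. The share of all genes called alike in both lines was not counted.

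Of 38 cortical actin genes, 1 was higher and 5 lower in 6CD2m than in WT TubA, with a median of -0.21 beside -0.01 for all genes. WASL, the gene of N-WASP, which activates the Arp2/3 complex, was higher by 1.01, at 65.2 CPM against 32.3 CPM. The formin genes DIAPH3 and DIAPH1, the spectrin gene SPTBN1, the profilin gene PFN1 and VASP were lower, with differences of -0.84, -0.64, -0.65, -0.55 and -0.50. In 8CDm 3 were higher and 3 lower than in WT PCI, with WASL at 0.87, PFN1 at -0.75 and SPTBN1 at -0.73 among them. Of the 6 called in 6CD2m, WASL, PFN1 and SPTBN1 were called in the same direction in 8CDm. The other 3 were not called there, with differences of 0.16 for DIAPH3, 0.15 for DIAPH1 and -0.11 for VASP. The comparisons share no libraries, but each sets an edited line at 2 days against WT cells at 14 days. Their WT groups were also paired by replicate number. The share of all genes called alike in both comparisons was not counted. With GC offsets the counts over the 8 lists between 6CD2m and WT TubA were 13 higher and 5 lower.

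**Figure D5:**
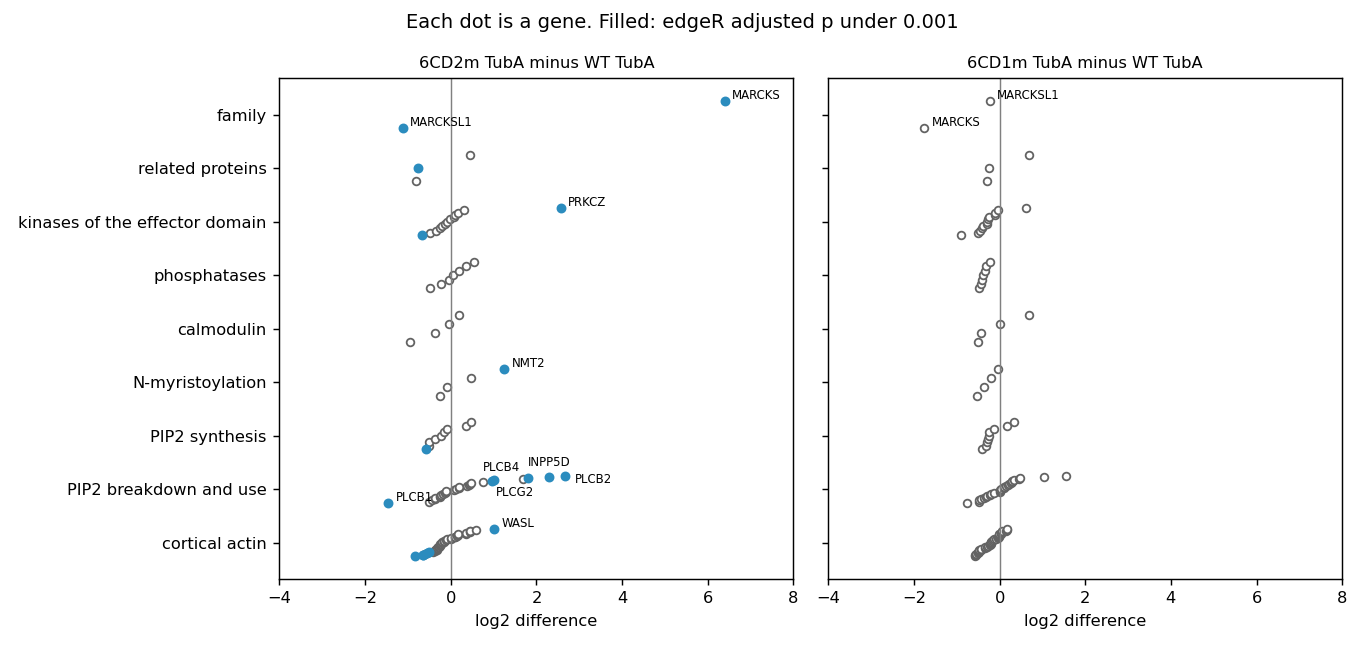
Log2 differences of the genes in each list, for 6CD2m minus WT TubA (left) and 6CD1m minus WT TubA (right). Each dot is a gene and filled dots passed an edgeR adjusted p of 0.001. MARCKS is at 6.40 on the left, as a description, with 8 genes of the 8 lists called higher and 9 lower, and none of them is called on the right, where MARCKS and MARCKSL1 are drawn open as descriptions.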

How the data were processed

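Each gene has an expected count, estimated by the authors from their sequencing reads and not normalized. The submitters' processing notes name Trimmomatic 0.39, Bowtie2 2.4.5, RSEM 1.3.3, DESeq2 1.38.2 and GRCh38. RNA was depleted of rRNA. The annotation and the use of strand are not given in the sources used here. Of the nonzero values 21.8% were not whole (tolerance 1e-09), and all were rounded. Groups came from the sample labels. The members and lists were chosen with earlier results of these data known.

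Genes passing filterByExpr (19535) were tested with edgeR 4.0.16 in R 4.3.3, with TMM scaling, 1 model of 5 group means and the quasi-likelihood test, at a false discovery rate of 0.001. The spread was shared by all groups, with a common biological coefficient of variation of 16.4%. Counting intervals are exact, at 95%, from summed counts and effective library sizes. A gene with at most 3 counts in each library was taken as at the floor, and log2 CPM used a prior count of 2. DESeq2 1.42.0, other scalings, filters, GC offsets, replicate blocks and leaving out libraries were alternatives. The fit was run on simulated data in which every gene had the same spread and changes were placed only in well-counted genes. That run does not bear on groups where MARCKS had very low counts. Positions are from GENCODE 29, matched by identifier for 57055 genes. Replicates differed by more than counting noise.

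The replicate numbers paired the libraries only between the WT groups, where the deviations of same-numbered libraries correlated at 0.50, 0.24 and 0.17. The named genes were the pair, their deacetylase neighbours, tested genes within 1 Mb, the 5 genes most like each member and called genes of the fixed lists.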

Additional observations from a re-analysis of the deposited data

Results flagged for a closer look

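The difference of MARCKS between a mutant line and WT cells on the same inhibitor was unequal in the TubA and PCI arms, with a difference of differences of 12.03 on the log2 scale (SE 0.66). It was singled out by the interaction term of the edgeR fit, which includes the 6CD2m libraries of the contrast that chose the gene, so this is no independent test and its p is not given. MARCKS was higher in 6CD2m than in WT TubA in 3 of 3 libraries and at 0, 0 and 1 counts in 8CDm, below all 3 WT PCI libraries. The size rests on 1 count in 8CDm and depends on the prior count. Leaving out single libraries gave 11.57 to 13.79.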

How the results depend on the processing

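No alternative reversed a direction of MARCKS or MARCKSL1. The MARCKS difference of 8CDm from WT PCI and the MARCKSL1 differences of 6CD2m from WT TubA, WT PCI and 8CDm stayed past the threshold in all alternatives run. With the replicate block, -0.49 for MARCKSL1 between 8CDm and WT PCI was lost (edgeR adjusted p = 0.0021), and it was likewise lost without a filter (-0.50), with GC offsets (-0.18), with the block and GC offsets (-0.18), with only the libraries compared (-0.47) and without any single library (-0.52 to -0.43). The block changed no other call of either gene, and outside the WT comparison the libraries shared only a number. At an adjusted p under 0.05 these were called: MARCKS between the WT groups (-1.81) and between 8CDm and WT TubA (-3.81), MARCKSL1 between the WT groups (-0.38) and its difference of differences (-0.63), and between 6CD1m and 6CD2m HDAC2 (-0.67) and HDAC1 (0.44). For HDAC2 and HDAC1 the alternatives covered only 6CD1m against 6CD2m and WT TubA. DESeq2 called MARCKS (-1.84) and MARCKSL1 (-0.39) between the WT groups and the MARCKSL1 difference of differences (-0.60), which leaving out WT PCI replicate 1 also did (-0.69, and -0.69 to -0.55 over all libraries). Without a filter, MARCKS between 8CDm and WT TubA (-3.80) and HDAC2 between 6CD1m and 6CD2m (-0.68) were called. The cause was not tested.

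Among descriptions, MARCKS in 6CD1m ran from -9.50 to -7.62 against 6CD2m, from -3.09 to -1.19 against WT TubA and from -4.90 to -2.99 against WT PCI with single libraries left out. MARCKSL1 in 6CD1m was 0.63 against 6CD2m with GC offsets with or without the block, -0.36 against WT TubA with GC offsets with or without the block and -0.11 with upper-quartile scaling, and -0.36 against 8CDm with GC offsets with or without the block. No value was set for MARCKS between 6CD1m and 8CDm, both at the floor. Upper-quartile scaling moved the median of all genes to 0.10 between 6CD1m and WT TubA and gave 1211 higher and 1228 lower genes between 6CD2m and WT TubA. The number of genes called between the WT groups was 82, and 1 to 1851 over the alternatives. With single libraries left out, the listed genes called higher between 8CDm and WT PCI were 20 without WT PCI replicate 1, 5 without WT PCI replicate 3, 6 without 8CDm replicate 2 and 7 or 8 otherwise. Between 6CD1m and 6CD2m they were 7 without 6CD1m replicate 1, 3 without 6CD1m replicate 3 and 1 or 2 otherwise. The listed genes called lower were 5 to 7 in the former comparison and 7 to 12 in the latter. Over all genes, 2140 were called between 8CDm and WT PCI, and 1119 to 2593 with single libraries left out. Between 6CD1m and 6CD2m these numbers were 2578, and 1423 to 2318. At these depths 3 counts or fewer do not separate a silent gene from a scarce one.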
